A study of Homo sapiens with 2 samples.

Results

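The 10 genes that mark epithelial or mesenchymal cells here were followed in the deposited expression table of 60527 genes. They were taken by gene symbol: 4 epithelial genes (CDH1, EPCAM, ESRP1 and GRHL2) and 6 mesenchymal genes (CDH2, VIM, FN1, ZEB1, SNAI2 and TGFBI). All 10 symbols had 1 entry each. RNA came from 2 cultures labelled as the human skin melanoma line SK-MEL-2, kept for 48 h with the solvent DMSO (control) or with 1.75 µM JNJ-7706621 (treated), an inhibitor of cyclin-dependent and Aurora kinases. Each group had 1 library, so no difference below has a replicate check. The table also has 2 columns named like these libraries but numbered 2, which match no sample label at hand and were not analysed here. The library totals were 23377161 reads for the control and 22817719 for the treated culture. Levels are in FPKM, fragments per kilobase of exon and scaled to the library total, which allows genes of different length to be compared. Values in parentheses after a ratio are 95% counting intervals, made from whole reads recovered from the FPKM values, and they do not cover the spread between cultures.

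Epithelial cells are joined into sheets by E-cadherin and by tight junctions and desmosomes. In the epithelial-mesenchymal transition, transcription factors of the ZEB, SNAI and TWIST families repress these genes, N-cadherin and vimentin take over, and the cells make fibronectin-rich matrix. Melanocytes come from the neural crest but use E-cadherin to contact keratinocytes, and a switch from E-cadherin to N-cadherin is a known step in melanoma.

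Both libraries carried high levels of most epithelial genes and of 2 mesenchymal genes, TGFBI and VIM. CDH1, EPCAM and ESRP1 stood at 49.8, 55.7 and 19.3 FPKM in the control, while the fourth epithelial gene, GRHL2, had no read in either library. Among the mesenchymal genes the levels split widely: TGFBI at 80.4 FPKM was the most abundant of all 10, VIM stood at 20.4 FPKM, and CDH2, FN1, ZEB1 and SNAI2 lay below 1 FPKM. In the treated culture TGFBI, VIM, CDH2 and FN1 were higher, at 1.55 to 3.01 times the control level, CDH1 was 1.36 times as high, and ESRP1 was lower.

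**Figure D1:**
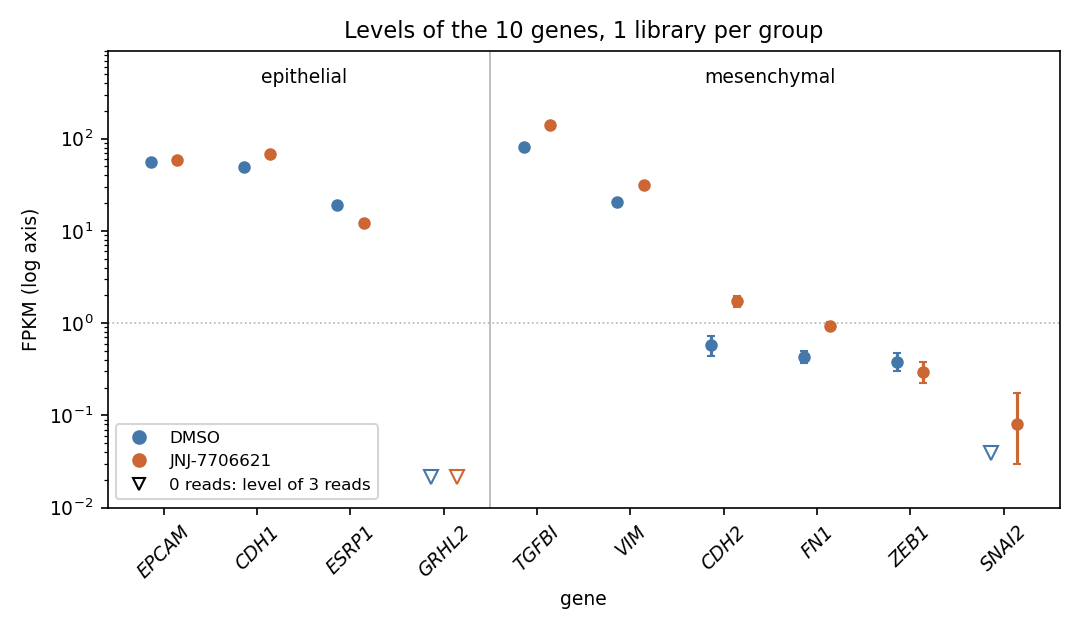
FPKM on a log axis for each of the 10 genes in the DMSO and JNJ-7706621 libraries, with 95% counting intervals as bars. Open triangles mark libraries with 0 reads of a gene and are drawn at the level that 3 reads would give. The epithelial genes other than GRHL2 lie above 10 FPKM in both libraries, as do TGFBI and VIM, and the remaining mesenchymal genes lie below 2 FPKM.

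Genes that define the labelled melanocyte lineage were scarce or had no reads. Of 21 melanocyte markers, 9 had a mean of at least 1 FPKM, the highest single value was 4.19 FPKM, and the list summed to 17.6 FPKM in control and 20.3 FPKM in treated cells. TYR, S100B, PAX3, EDNRB and SLC45A2 had 0 reads in both libraries. MITF, the melanocyte master regulator, stood at 2.65 and 2.27 FPKM, and SOX10 had 1 read in control and 0 in treated cells. By contrast, 9 epithelial markers, which include the keratins KRT8 and KRT18 and the 4 epithelial genes of the set, summed to 1983 and 1994 FPKM. KRT18 and KRT8 made up most of this sum, at 1117 and 720 FPKM in control. Of the 9 markers, 7 had a mean of at least 1 FPKM. The claudin genes CLDN4 and CLDN7 were low, at 1.32 and 0.412 FPKM in control, and GRHL2 had no read. Markers of other cell types that could carry mesenchymal genes were scarce. None of 9 fibroblast, 6 endothelial, 7 leukocyte and 5 neural crest or glial markers had a mean of 1 FPKM, and each list summed to at most 1.39 FPKM in either library. In bulk RNA a larger share of cells of one kind and more RNA per cell cannot be told apart.

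CDH1 encodes E-cadherin, the adhesion protein of epithelial adherens junctions, on chromosome 16 (68737225 to 68835548, plus strand, GRCh38). It stood at 49.8 FPKM on 7109 reads in the control and at 67.8 FPKM on 9440 reads in treated cells. The ratio was 1.36 (1.32 to 1.40), above the counting error of both libraries. Its level exceeded that of 96.8% of protein-coding genes in control and of 97.6% in treated cells.

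EPCAM, the epithelial cell adhesion molecule, lies on chromosome 2 (47345158 to 47387601, plus strand). Its level was 55.7 FPKM in control and 59.4 FPKM in treated cells, on 3280 and 3414 reads. The ratio of 1.07 (1.02 to 1.12) was the smallest departure from 1 among the 8 genes with at least 20 reads. EPCAM stood above CDH1 in the control and below it in the treated culture, and in neither library did their counting intervals overlap.

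ESRP1 encodes a splicing regulator that keeps epithelial exon choices, for example in CD44 and FGFR2, on chromosome 8 (94641074 to 94707466, plus strand). It was the 1 epithelial gene with a lower level in the treated culture, at 19.3 FPKM on 2195 reads in control and 12.2 FPKM on 1354 reads in treated cells. The ratio was 0.632 (0.590 to 0.677), and its log2 difference of -0.62 lay above only 5.86% of the genes measured. Its paralog ESRP2 had 11 reads in each library, so ESRP1 carried nearly all the reads of this pair. CD44, whose splicing ESRP1 controls, stood at 44.0 and 59.3 FPKM, and splice forms cannot be read from values per gene.

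GRHL2, a transcription factor that maintains CDH1 and claudin expression in many epithelia, also lies on chromosome 8 (101492432 to 101669726, plus strand). It had 0 reads in both libraries, which allows up to 0.0212 FPKM in control and 0.0217 FPKM in treated cells at 3 reads. The other 3 epithelial genes had at least 1354 reads in each library. Of its paralogs, GRHL1 stood at 0.909 and 1.18 FPKM, and GRHL3 at 0.608 FPKM on 56 reads in control and 2.46 FPKM on 221 reads in treated cells. The GRHL3 ratio was 4.04 (3.00 to 5.52).

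CDH2 encodes N-cadherin, the cadherin of neural and mesenchymal cells, on chromosome 18 (27950966 to 28177446, minus strand). It had 62 reads in control and 182 in treated cells, giving 0.572 and 1.72 FPKM. The ratio of 3.01 (2.24 to 4.08) was the highest among the 8 genes with at least 20 reads, although its interval overlapped that of FN1. CDH1 exceeded CDH2 by 87.1 times in the control and by 39.4 times in the treated culture, so E-cadherin was the more abundant transcript of the pair in both. CDH11, another mesenchymal cadherin, stood above CDH2 at 7.02 and 6.81 FPKM.

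VIM encodes vimentin, the intermediate filament protein of mesenchymal cells, which many cultured carcinoma lines also make, on chromosome 10 (17228259 to 17237593, plus strand). Its level was 20.4 FPKM on 2474 reads in control and 31.6 FPKM on 3732 reads in treated cells, a ratio of 1.55 (1.47 to 1.63). Exons of 2 other genes, VIM-AS1 and AL133415.1, cover 24.4% of its exon length, and their reads may not be separable without knowledge of strand. VIM-AS1 itself stood at 11.7 and 13.3 FPKM. The epithelial keratin KRT18 exceeded VIM by 54.6 times in control and by 35.5 times in treated cells.

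FN1 encodes fibronectin, an extracellular matrix protein that integrins bind, on chromosome 2 (215360440 to 215436172, minus strand). It stood at 0.427 FPKM on 172 reads in control and 0.927 FPKM on 364 reads in treated cells. The ratio was 2.17 (1.80 to 2.61), but both levels ranked in the middle of protein-coding genes, of which 43.1% had less in control and 48.3% in treated cells. In contrast, TGFBI was among the most abundant transcripts. It encodes a secreted matrix protein that TGF-beta induces, on chromosome 5 (136028895 to 136063818, plus strand). TGFBI stood at 80.4 FPKM on 14506 reads in control and 141 FPKM on 24865 reads in treated cells, a ratio of 1.76 (1.72 to 1.79). It exceeded 98.2% of protein-coding genes in control and 99.0% in treated cells, and its log2 difference of 0.80 was above that of 95.5% of the genes measured.

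The stretches upstream of VIM, TGFBI and FN1 are shown because each of these genes had 1 RefSeq window among those searched. CDH2 had 2 and ZEB1 had 7, and theirs are not printed. The matrix and filament genes shown were all higher in the treated culture, as was CDH2, although their levels differed widely. The sequences are from RefSeq (GRCh38.p14), 5′ to 3′ on the strand of the gene, beginning 250 bases before the RefSeq start and ending at that start or, where the gene annotated in GENCODE begins earlier, just before it. They cover chr10:17227991-17228240 for VIM, chr5:136028738-136028894 for TGFBI and chr2:215436173-215436318 for FN1. Capitals mark matches to the GC box GGGCGG, the cAMP response element TGACGTCA and the CCAAT box, searched on both strands.

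VIM: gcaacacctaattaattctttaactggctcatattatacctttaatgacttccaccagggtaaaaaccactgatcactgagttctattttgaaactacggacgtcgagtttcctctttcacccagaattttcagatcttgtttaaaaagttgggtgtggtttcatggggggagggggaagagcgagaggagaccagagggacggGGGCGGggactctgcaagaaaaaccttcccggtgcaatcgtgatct

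TGFBI: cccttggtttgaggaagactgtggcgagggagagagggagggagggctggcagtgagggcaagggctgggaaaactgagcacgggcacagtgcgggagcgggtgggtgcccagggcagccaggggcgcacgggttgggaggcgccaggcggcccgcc

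FN1: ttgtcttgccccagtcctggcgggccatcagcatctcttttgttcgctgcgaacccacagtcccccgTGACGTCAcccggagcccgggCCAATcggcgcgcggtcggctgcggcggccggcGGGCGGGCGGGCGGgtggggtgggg

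Over the full 250 bases before each start, the GC box matched at -46 in VIM, at -98, -66 and -16 in TGFBI and at 6 places in FN1, some of them overlapping. The TGFBI matches reach into or lie within the annotated gene, so none is complete in the printed stretch. Such a match occurs in 42.6% of the 35116 RefSeq windows of this length. FN1 alone of these 3 held a cAMP response element, beginning at -183, which 1.65% of all windows hold, and a CCAAT box at -162, which 32.0% hold. The E-box CAGGTG, the sequence that ZEB and SNAI factors bind, and the AP-1 sequence TGANTCA were not found in these 3 windows, against 17.5% and 6.57% of all windows with a match. A match describes letters only, and factor binding was not measured.

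ZEB1 and SNAI2 encode zinc finger repressors of CDH1, and both were low. ZEB1, on chromosome 10 (31318495 to 31529814, plus strand), had 77 reads in control and 58 in treated cells, or 0.381 and 0.294 FPKM. Its ratio of 0.772 (0.539 to 1.10) included 1, so no difference was detectable at this depth. SNAI2, on chromosome 8 (48917604 to 48921740, minus strand), had 0 reads in control and 6 in treated cells, the latter 0.0801 FPKM. The 0 reads allow up to 0.0391 FPKM in the control at 3 reads. The 95% counting interval of the ratio began at 1.21 and has no upper end. Both repressors thus lay far below the CDH1 level of 49.8 FPKM or more.

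**Figure D2:**
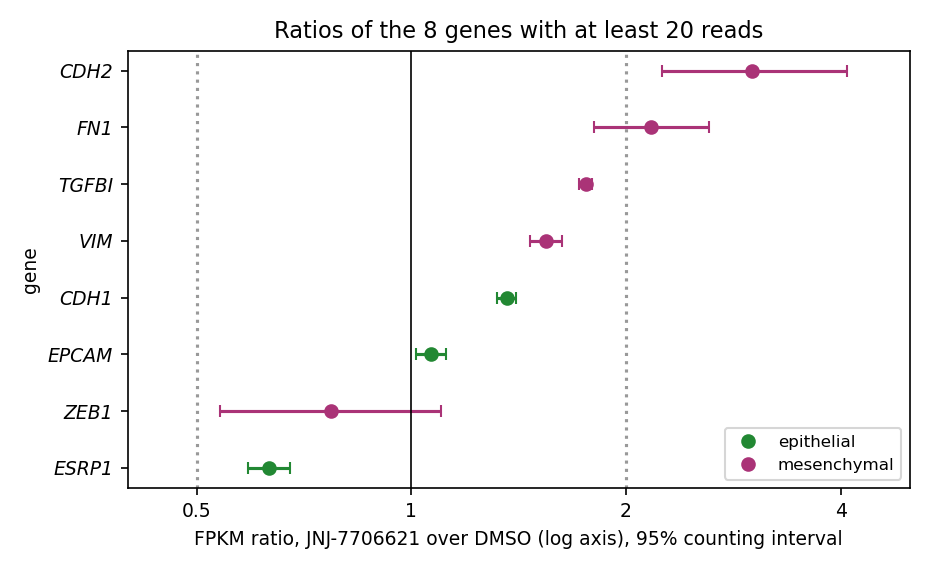
FPKM ratio of JNJ-7706621 over DMSO on a log axis for the 8 genes with at least 20 reads, with 95% counting intervals as bars and dotted lines at 0.5 and 2. CDH2 and FN1 lie above 2, TGFBI, VIM and CDH1 between 1 and 2, EPCAM next to 1, ESRP1 below 1, and the interval of ZEB1 includes 1.

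The 4 highest ratios belonged to mesenchymal genes, and the lowest to ESRP1. Ordered by ratio, the genes ran CDH2, FN1, TGFBI, VIM, CDH1, EPCAM, ZEB1 and ESRP1. The neighbours CDH2 and FN1, EPCAM and ZEB1, and ZEB1 and ESRP1 had overlapping counting intervals, and the other neighbours did not. Among these 8 genes, 2 had a ratio of at least 2 (CDH2 and FN1) and 0 a ratio of at most 0.5. Of all 17008 genes with at least 20 reads, 8.39% and 5.22% did. A counting interval above 1 was found for 6 of the 8 genes and below 1 for 1, against 31.7% and 30.2% of all.

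A gene was called 2-fold higher or lower where log2(FPKM + 1) differed by at least 1 either way and the mean of both libraries was at least 1 FPKM. By this rule 2.39% of 13241 genes were called higher and 1.36% lower. Of the 10 genes, 6 reached a mean of 1 FPKM (CDH1, EPCAM, ESRP1, CDH2, VIM and TGFBI), and 0 of them were called in either direction. Their log2 differences were 0.44, 0.09, -0.62, 0.79, 0.60 and 0.80. CDH2 was the 1 gene whose call depended on the setting: its log2 difference was 1.05 with a pseudocount of 0.5, 1.44 with 0.1, and 1.08 after each library was rescaled to the same sum. The median was 0.09 over the 3 measured epithelial genes and 0.79 over the 3 measured mesenchymal genes, beside -0.0032 over all 13241 genes. Without the filter on low values the mesenchymal median was 0.52 over all 6 genes.

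**Figure D3:**
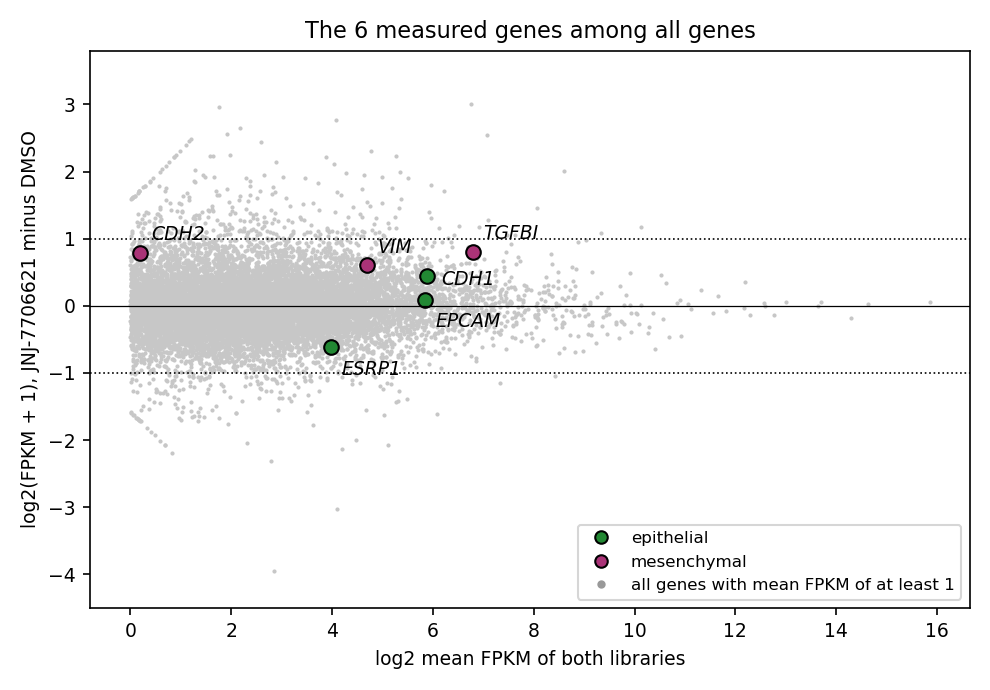
Difference in log2(FPKM + 1), JNJ-7706621 minus DMSO, against log2 mean FPKM for 13241 genes (grey) and the 6 measured genes of the set (coloured by class), with dotted lines at -1 and 1. TGFBI, CDH2 and VIM lie in the upper part of the cloud at 0.80, 0.79 and 0.60 and ESRP1 in the lower part at -0.62, all inside the dotted lines.

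Summed over their members, the epithelial genes came to 124.8 FPKM in control and 139 FPKM in treated cells, and the mesenchymal genes to 102 and 176 FPKM. The quotient of the sums was therefore 1.22 in the control and 0.793 in the treated culture. TGFBI made up 78.7% and 80.3% of the mesenchymal sums, and without it the quotients were 5.72 and 4.03. The order of the summed classes thus turned between libraries with TGFBI counted and did not turn without it.

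Further genes of the same programmes were taken from lists. The counts of called genes in each list stand beside 2.39% called higher and 1.36% called lower among all 13241 genes. Epithelial junction genes were mostly well expressed and had a median difference near 0. Of 37 genes, 29 were measured, 0 were called higher and 0 lower, and the median log2 difference was -0.07, with 11 genes above 0 and 18 below. PERP and JUP, components of desmosomes, stood at 151 and 88.5 FPKM in the control and at 144 and 68.8 FPKM in treated cells. PKP3, a desmosomal plaque protein, stood at 30.5 and 27.8 FPKM. Members differed in both directions: the claudin gene CLDN1 stood at 19.3 and 38.3 FPKM and NECTIN4, a nectin of adherens junctions, at 0.532 and 1.69 FPKM. The scaffold gene TJP1 of tight junctions had a ratio of 0.661 (0.626 to 0.697) and DSP, the desmosomal linker to keratin, one of 0.682 (0.647 to 0.719).

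Epithelial regulators and membrane genes had a median of -0.03 over 27 measured of 36 genes, with 1 called higher, GRHL3, and 1 called lower, TMC4. TMC4 stood at 11.6 FPKM in control and 3.85 FPKM in treated cells. MUC1, a membrane mucin, and KLF5, a transcription factor of epithelial stem and progenitor cells, had log2 differences of -0.95 and -0.80. The keratins KRT18 and KRT8 had ratios of 1.01 (0.995 to 1.02) and 0.976 (0.968 to 0.984), and the adhesion gene CEACAM6 stood at 547 and 567 FPKM. The list was uneven in which genes were present: the epithelial transcription factors ELF3 and EHF stood at 19.9 and 16.6 FPKM in control, whereas OVOL1, ELF5 and TMEM30B had 0 reads in both libraries.

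Among cadherins and catenins, the cytoplasmic partners of E-cadherin were abundant. CTNNA1 and CTNND1, alpha-catenin and p120-catenin, stood at 52.4 and 38.5 FPKM in control and 46.8 and 39.0 FPKM in treated cells. CTNNB1, beta-catenin, stood at 12.6 and 17.6 FPKM, a ratio of 1.39 (1.33 to 1.46), close to the 1.36 of CDH1. Of 8 measured genes 2 were called higher, CTNNAL1, an alpha-catenin relative, with a log2 difference of 1.14, and the cadherin gene CDH24 with 1.04. The median was 0.13 over these 8 genes and 0.015 over the 20 with any read. Of the 22 listed genes, 11 had fewer than 10 reads over both libraries.

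Transcription factors linked to the epithelial-mesenchymal transition had a median of -0.18 over 10 measured of 21 genes, with 0 called higher and 1 called lower. That gene was FOXC1, a forkhead factor of mesoderm and neural crest derivatives, which stood at 65.2 FPKM on 6073 reads in control and 24.2 FPKM on 2198 reads in treated cells. SOX4, TWIST1 and TEAD1 had log2 differences of -0.70, -0.57 and -0.52, and MSX1 one of 0.31. SNAI1, the relative of SNAI2, had 61 reads in each library, and ZEB2, the relative of ZEB1, had 0 and 7 reads. Of the 10 measured factors 4 lay above 0 and 6 below, while VIM, CDH2 and TGFBI were higher in the treated culture. Over the 19 factors with any read the median was 0.018.

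Genes of mesenchymal structure and matrix were mostly higher in the treated culture, as VIM and TGFBI were. Of 39 genes 17 were measured, 16 of them lay above 0 (against 49.6% of all measured genes), 4 were called higher and 1 lower, and the median was 0.60, or 0.28 over the 34 genes with any read. EMP3, a membrane protein, stood at 9.70 FPKM in control and 40.3 FPKM in treated cells, TPM2, a tropomyosin of the actin cytoskeleton, at 6.77 and 19.9 FPKM, and TNC, the matrix protein tenascin C, at 0.590 and 3.22 FPKM. VCAN, versican, was the 1 measured gene below 0, with a log2 difference of -1.55. Genes of the list too low to be measured lay on both sides of 0. LOX had 125 reads in control and 58 in treated cells, a ratio of 0.475 (0.342 to 0.654). TAGLN had 55 and 43, a ratio of 0.801 (0.525 to 1.22), while others, given below, were higher. The abundant members S100A4, a calcium-binding protein, and LGALS1, galectin-1, stood at 354 and 158 FPKM in control and 434 and 245 FPKM in treated cells. All 9 fibroblast markers are themselves on this list, though none reached the mean to be measured. They were low in both libraries, summing to 0.307 FPKM in control and 1.39 FPKM in treated cells. Most of this rise lay in LUM and COL1A1. LUM, the matrix proteoglycan lumican, had 5 reads in control and 49 in treated cells, a ratio of 10.04 (4.02 to 32.3), COL1A1, a chain of type I collagen, had 31 and 92, a ratio of 3.04 (2.00 to 4.73), and the receptor gene PDGFRB had 1 and 11. COL1A2, the other chain of type I collagen, had 0 reads in both libraries, and the remaining 5 markers had at most 11 reads in either. The part of such cells in the differences was not tested. The list was chosen with earlier results of these libraries known.

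TGF-beta pathway genes were compared because TGF-beta induces TGFBI. Their differences centred near 0, the median being -0.03 for 24 measured of 30 genes, 12 above 0 and 12 below, 2 called higher and 0 lower. Over the 11 genes with a mean of at least 5 FPKM the median was 0.21. The ligand gene TGFB1 stood at 21.0 and 18.3 FPKM, and the receptor gene TGFBR2 at 27.6 and 30.9 FPKM. SMAD3, the signal transducer, was called higher, at 20.5 FPKM on 4475 reads in control and 43.7 FPKM on 9306 reads in treated cells. PMEPA1, an inhibitor that TGF-beta induces, had a ratio of 1.85 (1.72 to 1.99), and LTBP1, which holds latent TGF-beta in the matrix, one of 2.21 (1.89 to 2.61). CCN2, a frequent target of the pathway, lay the other way with a log2 difference of -0.66. BAMBI, a pseudoreceptor, stood at 26.1 and 23.9 FPKM.

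The miR-200 family represses ZEB1 and ZEB2 in epithelia. Of its 5 hairpin genes, all had 0 reads in both libraries, and the host gene MIR200CHG had 2 reads in control and 0 in treated cells. Mature miRNAs are shorter than the fragments of such a library and were not measured.

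**Figure D4:**
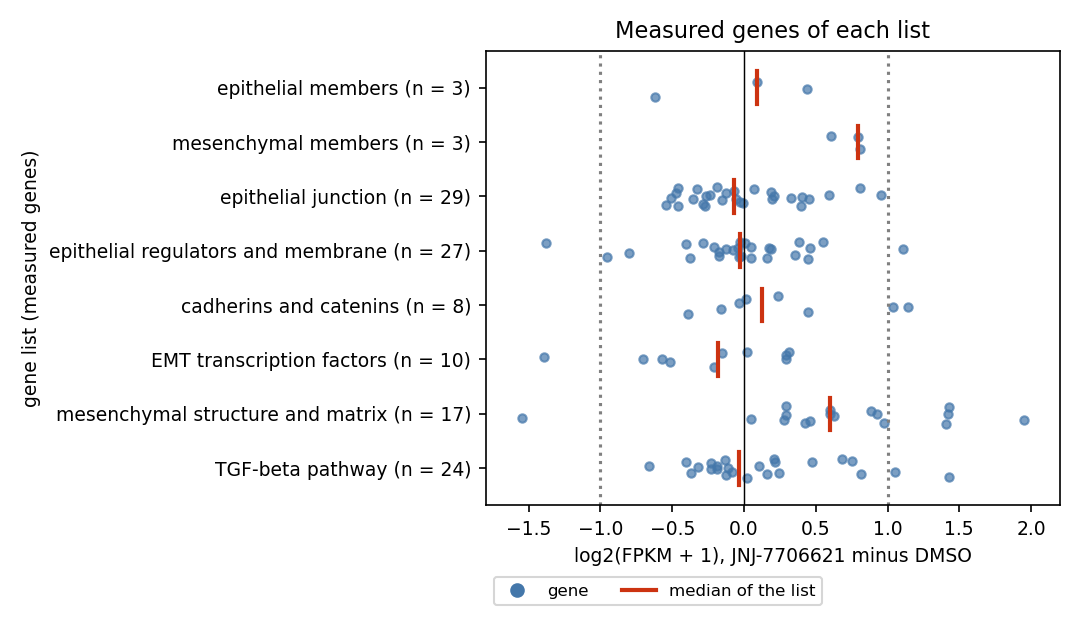
Difference in log2(FPKM + 1), JNJ-7706621 minus DMSO, for every measured gene (blue points) of each list, with the list's median as a red bar. The medians of the mesenchymal genes of the set (0.79) and of mesenchymal structure and matrix (0.60) lie above 0.5, and those of the other lists lie between -0.18 and 0.13.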

How the data were processed

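RNA of 2 libraries was analysed, 1 per group by the sample labels. Per the file headers, the authors deposited FPKM values. Genome build hg38 and edgeR appear in the submitters' processing notes, with no role stated. Aligner, read counter, annotation release and strand setting: not given in the sources used here. Of 4 columns of values, 2 are named like the libraries but numbered 2, match no sample label at hand and were not used. Whole reads were recovered from the FPKM values: with library totals of 23377161 (DMSO) and 22817719 (JNJ-7706621), FPKM times exon length times total was whole within 0.0001 reads at the GENCODE release 29 length for 17325 genes, and for others at the nearest length that made it so (0.25 to 4 times the annotated one). This gave reads for 27805 of 28014 genes above 0, or 99.7% of each total.

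Ratios carry exact 95% Clopper-Pearson intervals, conditional on the summed reads, and levels exact Poisson intervals. These and the floor of 3 reads cover counting error alone, as PCR copies are not independent molecules. Measured genes had a mean FPKM of at least 1. Differences are on the log2(FPKM + 1) scale, which understates those of low genes. No test was run, because each group has 1 library. Where a symbol had several rows, the row with the highest mean was used. Alternatives were other pseudocounts, filters and scalings, and summed rows.

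The members and lists were chosen with earlier results of these data known. Named were the 10 genes, KRT8, KRT18, MITF, SOX10, TYR and HNRNPD, and from each list up to 5 measured genes with the largest difference and 3 with the highest mean, of which the text gives a part. ESRP2, GRHL1, ELF3, EHF, CDH11, SNAI1, ZEB2, TGFB1, CCN2, LUM, COL1A1, PDGFRB, LOX, TAGLN and genes at 0 were named after their values were seen. Ratio and interval counts over genes with at least 20 reads were added after the data were seen. Motifs were searched in the 250 bases before each start in the RefSeq promoter table. The windows searched were those of CDH2 (2), VIM (1), FN1 (1), ZEB1 (7) and TGFBI (1). No window was held for CDH1 and EPCAM, and those on chromosome 8 (the chromosome of ESRP1, GRHL2 and SNAI2) were left out of the search for the genes of the set. Calculations were tested on simulated data and used Python 3.11.15, pandas 2.3.3 and SciPy 1.17.1.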

Additional observations from a re-analysis of the deposited data

How the results depend on the processing

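No paired analysis was possible because the groups share 1 replicate number and hold 1 library each, so leaving out a replicate was not possible either. The differences of the 9 genes with reads kept their sign in every value from the 7 other settings. Other pseudocounts, filters and summed rows cannot change the sign of these genes, so only the scalings could have done so. CDH2 was called higher with pseudocounts of 0.1 (1.44) and 0.5 (1.05), and also when each library was rescaled to sum to 1000000 (1.08), and the other 9 genes were called under none. Counts of genes called higher and lower were 316 and 180, and became 608 and 409 with a pseudocount of 0.1, 145 and 75 with a mean of at least 5 FPKM, and 714 and 478 after rescaling. With a pseudocount of 0.5, 274 genes were called lower. Without the filter on low values the medians were 0.52 for the mesenchymal genes of the set, 0.015 for cadherins and catenins, 0.0051 for epithelial regulators and membrane genes (from -0.03), 0.018 for the transcription factors (from -0.18), and 0.28 for mesenchymal structure and matrix. With a mean of at least 5 FPKM they were 0.70 for the mesenchymal genes of the set (2 genes), -0.36 for the transcription factors, 0.42 for structure and matrix and 0.21 for the TGF-beta pathway. These 2 settings alter which genes enter. Without TGFBI, an alternative chosen after seeing the data, the epithelial over mesenchymal quotient was 5.72 in control and 4.03 in treated cells. Across 5 groups of genes by exon length the median difference ran from -0.08 to 0.04. A group median does not give the spread of single genes, so a part of exon length in their differences was not tested. With 1 library per group the spread between cultures was not measured here, and depth limits SNAI2, ZEB1 and GRHL2 most.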

Other observations

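Transcripts annotated across the exons of CDH1, VIM and ZEB1 were read from the same libraries, chosen after their values were seen. AC099314.1 overlaps 5.62% of the CDH1 exon length, and 61.7% of its own exon length lies in CDH1 exons. It stood at 59.8 FPKM in control and 83.6 FPKM in treated cells, with a ratio of 1.40 (1.27 to 1.54) near the 1.36 of CDH1. AL133415.1, of whose exon length 87.7% lies in VIM exons, stood at 47.3 and 72.1 FPKM, a ratio of 1.52 (1.39 to 1.67) beside the 1.55 of VIM. ZEB1-AS1, an antisense gene beside ZEB1, stood at 1.65 and 2.04 FPKM, a ratio of 1.24 (0.991 to 1.55), and was more abundant per length than ZEB1 itself in both libraries. Whether reads of these pairs can be separated depends on the strand setting, and this was not tested.

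ZEB1 has 7 start sites in the RefSeq promoter table, and 2 of them carry the E-box CAGGTG within 250 bases before the start, 1 with 1 match and 1 with 2 matches. The 2 windows of CDH2 held 0 such matches, and 1 of them held an AP-1 match. HNRNPD, the gene of the RNA-binding protein AUF1 named in the series title, stood at 39.2 FPKM in control and 30.3 FPKM in treated cells.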
